A study of Mus musculus with 2 samples.

Results

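The levels of 44 nucleolar and ribosome assembly genes were described in endothelial cells sorted from mouse embryos. The genes were listed by symbol, with earlier results of these data known, and all 44 were found among the 27998 genes counted. They encode 3 abundant organisers of the nucleolus, 6 proteins of RNA polymerase I transcription and 4 proteins of box C/D guide-RNA particles. Another 5 are grouped with box H/ACA guide-RNA particles, among them Pinx1, which is not a core protein. The rest encode 10 assembly factors of the small ribosomal subunit and 16 of the large subunit.

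The nucleolus is where RNA polymerase I transcribes the ribosomal RNA precursor and where that precursor is cut, modified and packed with ribosomal proteins. Box C/D particles methylate the RNA and box H/ACA particles convert uridine to pseudouridine, while large sets of helicases, scaffolds and nucleases take the precursors of each subunit toward the cytoplasm. Many of these genes are targets of the transcription factor MYC, and their expression is known to go with cell growth and division.

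The study compared the endothelium of control embryos with endothelium in which Mekk3 was to be deleted. Map3k3 encodes Mekk3, a kinase upstream of the flow-responsive factors Klf2 and Klf4. The control library came from embryos with the genotypes Mekk3 fl/fl and Mekk3 fl/+, and the mutant library from Mekk3 fl/-; Tie2Cre+ embryos, all of the strain C57BL/6J. Tie2Cre is a recombinase active in endothelial and blood cells, so the floxed allele would be lost there, and the other allele of the mutants is null in every cell. The labels give embryonic day 9.5 for the control and, in the stage field, 9.7 for the mutant, whose title says 9.5. The tissue was the dorsal aorta together with the vitelline and umbilical arteries, and the sort kept cells that were CD31+, CD144+ and ESAM+, without Ter119 and with low or no CD41. How many embryos went into each library is not given in the sources used here. With 1 library per genotype there was no replicate, so no test was possible: genotype, stage, embryos and library cannot be told apart. Intervals are 95% intervals that cover the counting of unique molecular identifiers (UMIs) only.

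There were 6675 control cells with 60790367 UMIs in all (median 7566) and 3242 mutant cells with 21512713 (median 5647). A count of 0 therefore allows up to 0.0493 CPM (UMIs of a gene per 1000000 UMIs of its library) in control and 0.139 CPM in mutant cells, from a floor of 3 UMIs. Map3k3 had 9.00 control and 10.6 mutant CPM, for a ratio of 1.18 (1.01 to 1.38). A 3′ tag need not lie in the deleted part, so this checks nothing about the deletion. The libraries differed in the sex of their embryos, since 2922 control and 0 mutant UMIs fell on Y-linked genes. Endothelial markers were present: 92.3% (91.7 to 93.0, Clopper-Pearson) of control and 92.1% (91.1 to 93.0) of mutant cells had UMIs of at least 3 of 10 endothelial markers and of at most 1 marker each of blood, mesenchymal and neural cells. Only 5 cell barcodes occurred in both libraries.

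Most of the genes were lower in the mutant library. The mean level of 41 of the 44 reached 5 CPM, the minimum used for counts, and 39 of these 41 were lower in the mutant. Of all genes that reached it, 60.3% had a ratio under 1.002, that of Polr1c. A level at or under 1/1.5 of the control was found for 30 of the 41, where 19.9% of all 8584 genes of that level were as low, and for none was it at least 1.5-fold higher, where 11.8% of all genes were. The median log2 ratio of the 41 was -0.76, beside -0.13 for all genes. The interval lay below 1 for 39 and above 1 for 1, Npm1. The same count over all genes is not given here, and intervals of counting error alone are narrow at this depth. The other 3 genes, Heatr1, Rrp12 and Polr1b, were under the minimum in the mean of the libraries and were lower in the mutant as well.

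**Figure D1:**
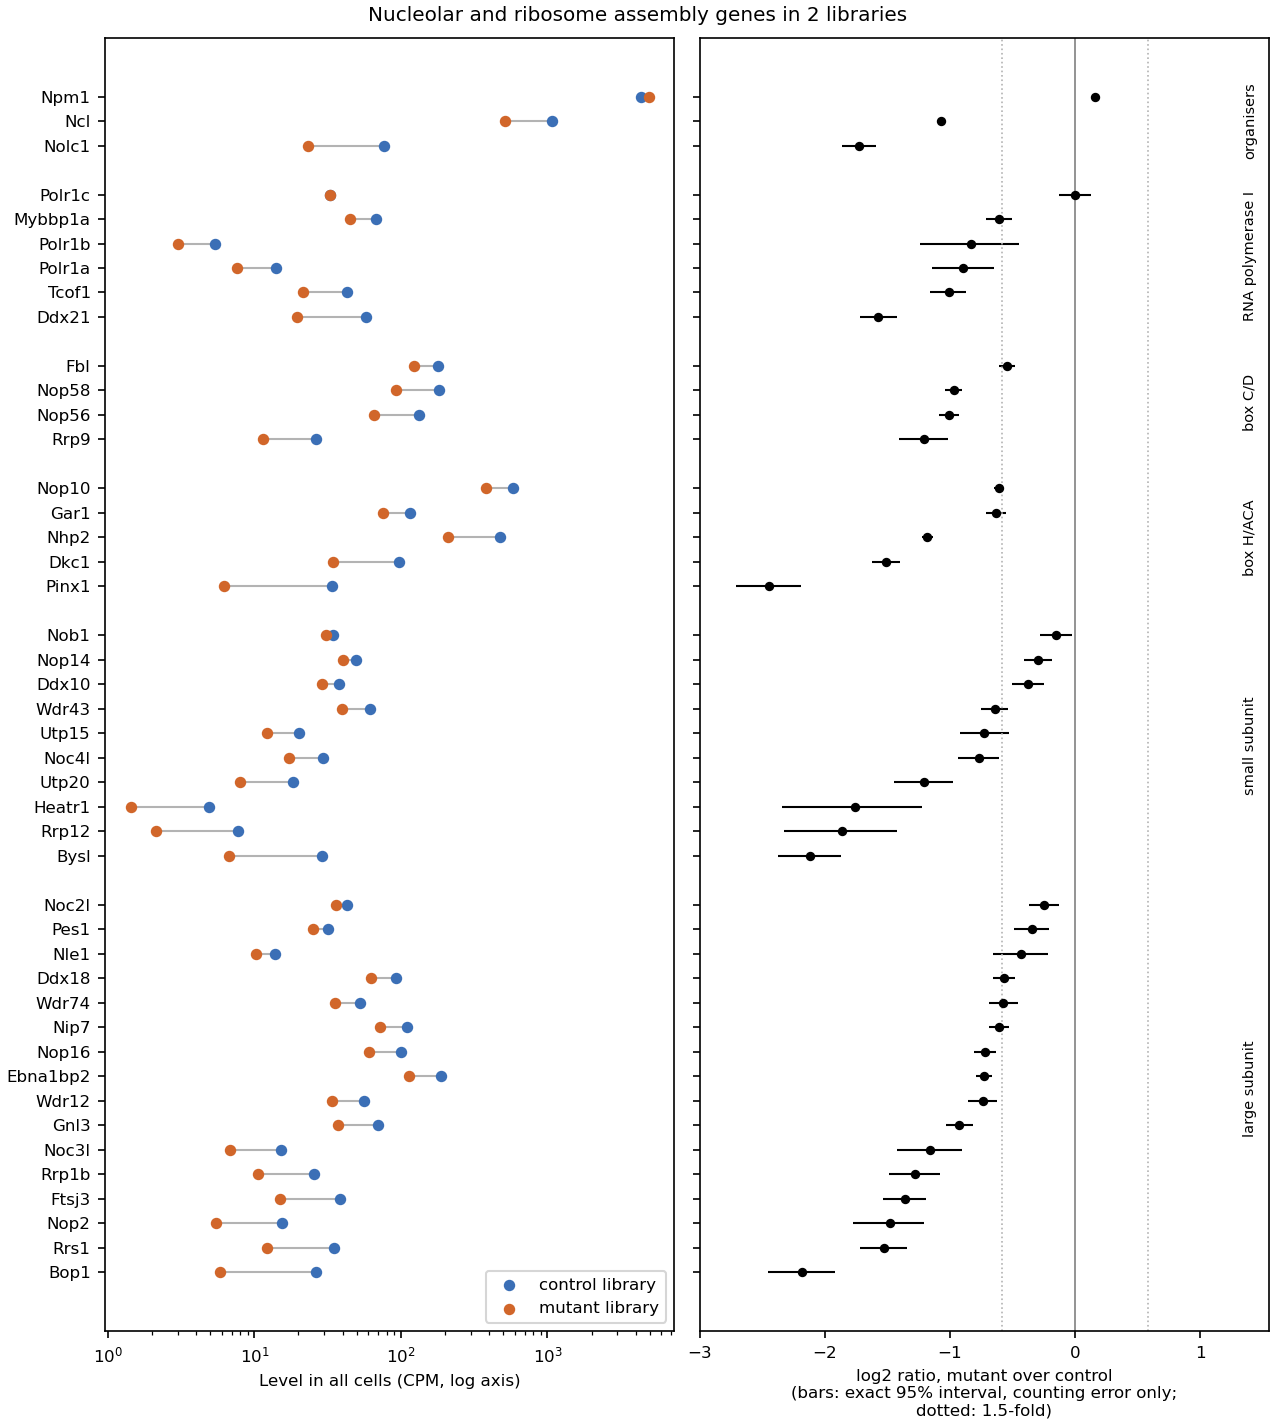
Levels of the 44 genes in all cells of the control (blue) and mutant (orange) library, in CPM on a log axis, with the log2 ratio of mutant over control at the right. Bars are exact 95% intervals of counting error, dotted lines mark 1.5-fold, and genes are ordered within their role. Npm1 lies right of 0, Polr1c on it, and the other genes left of it, down to Pinx1 at -2.44.

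The sum of the 44 genes shows less of this, since Npm1 alone made up 49.9% of it for the control and 67.2% for the mutant. Together the genes took 8763 CPM (8740 to 8787) of the control and 7289 CPM (7253 to 7325) of the mutant library, a ratio of 0.832 (0.827 to 0.836). Ncl, the next most abundant, made up 12.3% of these UMIs for the control and 7.03% for the mutant. Without both genes the sum was 3320 control and 1879 mutant CPM, a ratio of 0.566 (0.560 to 0.572). These are shares of a library, and ribosomal protein genes alone took 26.5% of the control UMIs and 33.3% of the mutant UMIs. With totals that leave out mitochondrial, ribosomal protein and hemoglobin genes, the ratio of all 44 was 0.906.

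The 3 organisers did not share a direction. Npm1 (nucleophosmin, chromosome 11) is a histone and ribosome chaperone of the outer nucleolus, at 4368 control and 4897 mutant CPM. Its ratio of 1.12 (1.11 to 1.13) was the highest of the 44, and its log2 ratio lay between 0.14 and 0.92 in each alternative scaling, depth and choice of cells tried. Ncl (nucleolin, chromosome 1) binds nascent ribosomal RNA and stood at 1074 control and 513 mutant CPM, a ratio of 0.477 (0.468 to 0.487). Nolc1, which chaperones guide-RNA particles to the nucleolus, had 76.2 control and 23.1 mutant CPM, for a ratio of 0.303 (0.275 to 0.332). Nucleophosmin genes have processed copies in the genome, and how reads that fit several places were counted is not given in the sources used here.

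Among the genes of RNA polymerase I transcription, the enzyme's own subunits and its helpers were lower in the mutant, with 1 exception. Ddx21, an RNA helicase that senses polymerase I transcription, had 58.2 control and 19.6 mutant CPM, for a ratio of 0.337 (0.303 to 0.372). Tcof1, the treacle protein that recruits the polymerase to ribosomal DNA, was at 43.0 and 21.4 CPM, a ratio of 0.497. The largest subunit Polr1a was at 14.1 control and 7.62 mutant CPM, and the second largest subunit Polr1b at 5.38 and 3.02 CPM, ratios of 0.539 and 0.562. Mybbp1a, a nucleolar protein that binds MYB, was at 67.9 and 44.6 CPM. Polr1c, a subunit that RNA polymerases I and III share, was level at 32.6 control and 32.7 mutant CPM, a ratio of 1.002 (0.918 to 1.09).

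All 9 genes grouped with the guide-RNA particles were lower. Of the box C/D proteins, the methyltransferase Fbl (fibrillarin) had 179 control and 123 mutant CPM, for a ratio of 0.687. Its core partners were lower by more, with Nop56 at 133 and 66.0 CPM and Nop58 at 181 and 92.6 CPM. Rrp9, which belongs to the U3 particle that guides the early cuts of the precursor, was at 26.3 and 11.4 CPM. These 4 genes had ratios from 0.433 to 0.687.

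The box H/ACA group, with Pinx1 counted in, had the lowest median log2 ratio of the 6 roles, -1.18 over 5 genes. Its core is Dkc1 (dyskerin), the pseudouridine synthase, with Nop10, Nhp2 and Gar1, and the same proteins sit in telomerase. Log2 ratios of these 4 genes were -1.51 for Dkc1, -1.18 for Nhp2, -0.63 for Gar1 and -0.61 for Nop10. Medians were -1.07 for the organisers and -0.99 for box C/D. Dkc1 had 97.1 control and 34.2 mutant CPM, for a ratio of 0.352 (0.325 to 0.380). Nhp2 was at 471 and 208 CPM, Nop10 at 581 and 381 CPM, and Gar1 at 116 and 74.9 CPM. Ratios of partners in a single 4-protein core thus ran from 0.352 for Dkc1 to 0.656 for Nop10, with intervals that did not overlap between these 2 genes. Pinx1, grouped here for its tie to telomerase, which it inhibits (chr14:63860364-63919859, plus strand), was at 33.8 control and 6.23 mutant CPM. Its ratio of 0.184 (0.153 to 0.219) was the lowest of the 44, and 0.175% of all genes had a lower one.

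The small-subunit factors spread widely. Bysl, which acts late on the 40S precursor (chr17:47599331-47611492, minus strand), had 29.0 control and 6.69 mutant CPM, for a ratio of 0.231 (0.193 to 0.274). Heatr1 and Rrp12, large repeat proteins of the early and late precursor, were at 4.87 and 7.75 CPM in the control and 1.44 and 2.14 CPM in the mutant. Utp20, Noc4l, Utp15 and Wdr43, parts of the early processing complex, had ratios of 0.433, 0.588, 0.606 and 0.642. Nearer to 1 were Ddx10 at 0.772, Nop14 at 0.817 and Nob1, the nuclease that makes the last cut of 18S RNA, at 0.901 (0.825 to 0.983).

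All 16 large-subunit factors were lower, 11 of them at or under 1/1.5 of the control. Bop1, Pes1 and Wdr12 form the PeBoW complex, which is needed to process 32S precursor RNA, and their values differed from each other. Bop1 (chr15:76452989-76477277, minus strand) had 26.3 control and 5.81 mutant CPM, for a ratio of 0.221 (0.182 to 0.265). Wdr12 was at 56.2 and 33.7 CPM, a ratio of 0.600 (0.553 to 0.651). Pes1 was at 31.9 and 25.1 CPM, a ratio of 0.788 (0.715 to 0.867), so none of the 3 intervals overlapped another.

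Other large-subunit genes with low ratios were Rrs1, a factor that brings in the 5S particle, at 35.1 control and 12.2 mutant CPM, and Nop2, a 28S RNA methyltransferase, at 15.3 and 5.49 CPM. The methyltransferase Ftsj3, the PP1-binding protein Rrp1b and Noc3l had ratios of 0.390, 0.412 and 0.448. Gnl3 (nucleostemin), a GTP-binding protein of stem and dividing cells, was at 70.0 and 37.0 CPM, a ratio of 0.528. The remaining 7 genes had ratios from 0.604 for Ebna1bp2 to 0.843 for Noc2l, with Nop16, Nip7, Wdr74, Ddx18 and Nle1 between them.

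Promoters were searched for 4 motifs, to see which letters these genes share around their starts. RefSeq promoter windows (GRCm38.p6, 250 bases before to 50 after the start) were matched for 37 of the 44 genes. A gene can have several windows, and it was counted where any of them held the motif. The palindromic E-box CACGTG is the core to which MYC with its partner Max binds. It was in a window of 6 of the 37 genes (16.2%) and of 8.09% of all 27025 genes with a window. Of 95 further ribosome assembly genes it was in 20.0%, and of 65 ribosomal protein genes in 9.23%. The 6 genes, Nop2, Utp20, Wdr43, Mybbp1a, Nle1 and Pes1, had ratios from 0.358 to 0.788, and except for Nop2 the E-box began after the start, from base 2 in Pes1 to base 40 in Mybbp1a. The ETS-type element ACTTCCGG, on either strand, was in 8 of 37 genes (21.6%) and in 4.31% of all. It was in 25.3% of the further assembly genes and in 18.5% of the ribosomal protein genes. The 8 of the 37 genes were Heatr1, Nhp2, Ebna1bp2, Gar1, Nip7, Wdr74, Noc2l and Polr1c, with ratios from 0.296 to 1.002. CCAAT on either strand was in 13 of 37 genes (35.1%) and 41.1% of all. The fourth, a longer palindrome with CGCG at its centre, was in 0 of 37 and 0.525% of all. In the further assembly and ribosomal protein genes the shares were 37.9% and 30.8% for CCAAT, and 3.16% and 9.23% for the fourth. No motif contains another. A match describes the letters only.

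Stretches of 4 windows are shown, with the motif in capitals and read 5′ to 3′ along the gene, because they put the same letters before genes with different ratios: the E-box before Nop2 (ratio 0.358), and the ETS-type element, in 2 of the 3 cases on the opposite strand, before Gar1 (0.646), Nip7 (0.657) and the level gene Polr1c (1.002). They lie at chr6:125131799-125131852 (plus strand), chr3:129831409-129831464 (minus), chr8:107056750-107056805 (plus) and chr17:46248056-46248111 (minus) of GRCm38.p6, upstream of the annotated gene.
Nop2: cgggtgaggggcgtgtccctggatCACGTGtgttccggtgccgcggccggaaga
Gar1: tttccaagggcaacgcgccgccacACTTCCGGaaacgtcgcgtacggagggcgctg
Nip7: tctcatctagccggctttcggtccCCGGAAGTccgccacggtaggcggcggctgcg
Polr1c: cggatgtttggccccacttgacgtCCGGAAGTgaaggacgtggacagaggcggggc

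Other genes of the same pathway were lower too, by less. From a list of 117 further assembly genes, 115 were found and 108 reached 5 CPM. Of these, 92 were lower in the mutant, 45 at or under 1/1.5 of the control and none at least 1.5-fold higher, with a median log2 ratio of -0.48. By the interval bound nearest to 1, the 4 lowest were Ltv1 and Pno1, late 40S factors, at ratios of 0.270 and 0.350, the exosome subunit Exosc1 at 0.289, and Polr1e, a subunit of RNA polymerase I, at 0.318. By the same bound the 4 highest were Mphosph6 at 1.45, an exosome cofactor, the U3 particle protein Imp3 at 1.35, Nol12 at 1.30 and the large-subunit factor Nsa2 at 1.20. By part of the pathway the median log2 ratio ran from -0.60 for 37 small-subunit factors to -0.29 for 13 exosome genes. Ribosomal protein genes went the other way: their summed ratio was 1.26, and 68 of 82 had an interval above 1. The count of such intervals over all genes is not given here. At least 1.5-fold higher were 7 of the 82, where 11.8% of all genes were.

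Genes of the MYC network were measured beside them. Myc itself had 24.7 control and 13.4 mutant CPM, for a ratio of 0.541 (0.476 to 0.615), and its partner Max had a ratio of 0.740 (0.667 to 0.819). Mycn was at 21.3 and 26.9 CPM, a ratio of 1.26 (1.14 to 1.39). Among the proteins that compete with MYC for its partner, Mxi1 was at 7.83 and 39.0 CPM, a ratio of 4.98, Mnt at 4.03 and 8.18 CPM, a ratio of 2.03, and Mxd4 at 17.1 and 28.8 CPM, a ratio of 1.69. Mxd1 had a ratio of 1.03 (0.808 to 1.31), Mlx of 0.750 (0.666 to 0.843), Mxd3 of 0.583 and the sparse Mycl of 0.706 (0.353 to 1.32). The part of these genes in the levels of the 44 was not tested.

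Cell-cycle and hypoxia genes also differed between the libraries. All 30 S-phase genes of a fixed list were lower in the mutant (median log2 ratio -0.84), among them the cyclin Ccne1 at a ratio of 0.183 and the ribonucleotide reductase subunit Rrm2 at 0.237. For 25 G2/M genes the median was -0.13, with Ccna2 at 0.725 and Kif23 at 0.732. All 14 hypoxia-response genes that reached 5 CPM were higher in the mutant by at least 1.5-fold, the median log2 ratio being 3.17.

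The lower levels were found within the endothelial cells. In cells gated by markers as endothelial, 6163 of the control and 2986 of the mutant, 40 of 41 genes were lower and 28 were at or under 1/1.5 of the control, where 20.1% of all genes were. The median log2 ratio was -0.74. Without Npm1 and Ncl the sum was 3261 control and 1866 mutant CPM, a ratio of 0.572 (0.566 to 0.578). In these cells blood markers summed to 22.4 control and 21.5 mutant CPM, mesenchymal markers to 6.80 and 7.48 CPM, and smooth muscle markers to 44.4 and 193 CPM. Erythroid markers summed to 314 control and 7.63 mutant CPM. Without cells that had UMIs of 2 or more erythroid markers the median log2 ratio was -0.74, as with them.

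Venous-gated and arterial-gated endothelium were then taken apart by the number of venous and arterial markers detected in each cell. Venous-gated cells, 3462 of the control and 1038 of the mutant, resembled the whole: 41 of 42 genes were lower, 25 of them at or under 1/1.5 of the control, where 18.8% of all genes were. Their summed ratio was 0.862 (0.855 to 0.869), and 0.598 (0.589 to 0.607) without Npm1 and Ncl. Arterial-gated cells, 925 and 346, had 33 of 41 genes lower and 21 at or under 1/1.5, where 26.5% of all genes were. Their summed ratio was 1.01 (0.987 to 1.03), and 0.645 (0.618 to 0.674) without Npm1 and Ncl.

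In arterial-gated cells the summed level and the single genes differed through Npm1, which had 2369 control and 3358 mutant CPM there, a ratio of 1.42 (1.38 to 1.46), while Ncl was 561 and 346 CPM. Pinx1 at 32.8 and 6.27 CPM, Bop1 at 16.3 and 3.13 CPM, and Dkc1 at 45.5 and 15.7 CPM had ratios of 0.191, 0.192 and 0.344 there, near those of all cells. The 7 other genes that were not lower in arterial-gated cells, Ddx18, Gnl3, Nob1, Nop14, Pes1, Utp15 and Wdr12, had ratios from 1.01 to 1.15, each with an interval that included 1. Whether the genotypes differ by more in venous than in arterial cells could not be tested with 1 library each. Smooth muscle markers in arterial-gated cells summed to 245 control and 823 mutant CPM, and their part was not tested.

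Within each library, the assembly genes were lower in arterial-gated than in venous-gated cells. In the control all 42 genes that reached the minimum were lower in arterial-gated cells, 34 of them at or under 1/1.5 of the venous level, where 7.14% of all genes were. The sum was 4968 CPM in arterial-gated and 9512 CPM in venous-gated control cells, a ratio of 0.522 (0.516 to 0.529), and the median log2 ratio was -0.75, beside 0.16 for all genes. In the mutant all 39 genes were lower, 21 of them at or under 1/1.5, where 10.6% of all genes were. Its sums were 5020 and 8200 CPM, a ratio of 0.612 (0.599 to 0.625).

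Genes differed in how far they followed this. In the control the lowest arterial ratios were those of Dkc1 at 0.423, Nle1 at 0.437, Wdr12 at 0.441 and Gnl3 at 0.458, and Npm1 stood at 0.495 and Ncl at 0.473. Pinx1 at 0.937 (0.797 to 1.10) and Polr1c at 0.926 (0.784 to 1.09) were nearly level between the 2 gates. In the mutant Dkc1 was again low, at 0.360 (0.240 to 0.522), and Polr1c was at 0.930. The arterial gate of the control also held 13 cells with UMIs of 2 or more erythroid markers, and its erythroid markers summed to 2905 CPM. Without such cells in either gate that sum was 20.1 CPM, and again 42 of 42 genes were lower and 34 at or under 1/1.5, with a summed ratio of 0.519.

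The gates differed in depth and in S-phase content. Arterial-gated control cells had a median of 4215 UMIs and venous-gated ones 9757, so cells were thinned at random to 2500 UMIs each, and shallower cells were left out. At that depth, 600 arterial-gated control cells had a mean of 11.6 UMIs of the 44 genes and 3214 venous-gated ones 22.3, with 3.27 and 5.32 UMIs of the 30 S-phase genes. The ratio of 0.520 became 0.581 when venous-gated cells were compared at the same S-phase UMIs. In the mutant, 248 arterial-gated cells had a mean of 11.8 UMIs and 924 venous-gated ones 19.6, and the ratio of 0.603 became 0.628. Thus at each S-phase content arterial-gated cells of both libraries had fewer UMIs of these genes than venous-gated cells of the same library.

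**Figure D2:**
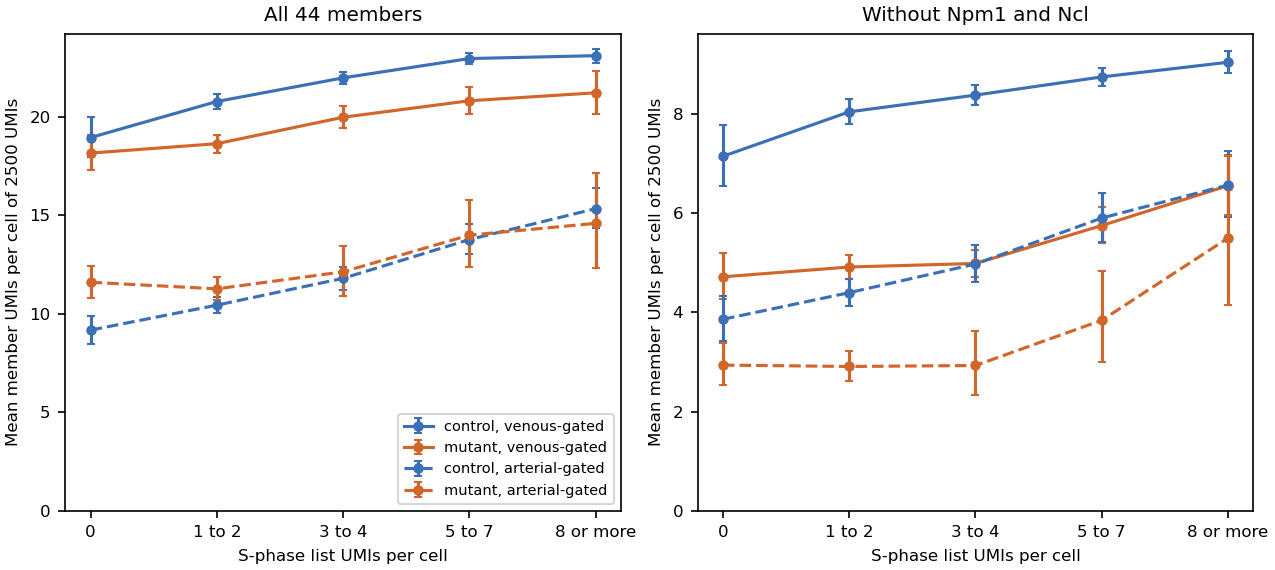
Mean UMIs of the 44 genes per cell (left) and without Npm1 and Ncl (right), in cells thinned to 2500 UMIs, by the number of S-phase UMIs of the cell. Solid lines are venous-gated and dashed lines arterial-gated cells, blue is the control and orange the mutant, and bars are exact 95% Poisson intervals of the mean. In the left plot each dashed line lies under both solid lines, and in the right plot the mutant lies under the control in each gate.

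Blood and mesenchymal cells in the sort gave 2 further levels in the control. In 126 blood-gated cells, all 44 genes were higher than in endothelial-gated cells, 24 of them at least 1.5-fold, where 15.6% of all genes were, and the sum was 12837 against 8611 CPM, a ratio of 1.49 (1.47 to 1.51). Wdr12 had the highest ratio, 2.76 (2.46 to 3.09), followed by Tcof1 at 2.39 (2.08 to 2.74), and Bysl the lowest, 1.01. Mesenchymal-gated cells, 66 in number, had 24 of 41 genes higher and 1 at least 1.5-fold, where 17.9% of all genes were, and a summed ratio of 1.03 (1.002 to 1.05). These gates set no limit on endothelial markers, which summed to 1235 CPM in the blood gate and 1011 CPM in the mesenchymal gate. Endothelial-gated control cells had 4774 CPM of them. Median UMIs per cell were 18071 in the blood gate, 9142 in the mesenchymal gate and 7442 in the endothelial gate, and no doublets were removed. Erythroid markers summed to 12848 CPM in the blood gate and 17394 CPM in the mesenchymal gate. Without 7 and 1 cells that had 2 or more erythroid markers the summed ratios were 1.53 and 1.05, and all 44 genes were again higher in blood-gated cells. The mutant library had 9 blood-gated and 17 mesenchymal-gated cells, under the 50 set for a comparison.

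Single cells of both libraries with more S-phase UMIs had more UMIs of the assembly genes. All gates were pooled here, and arterial-gated cells had fewer UMIs of both kinds than venous-gated cells. The part of this makeup in the ratios below was not tested. At 2500 UMIs per cell, 5591 control and 2435 mutant cells remained, and 1084 and 807 shallower ones were left out. In the control, 2796 cells with 5 or more S-phase UMIs were set against 695 cells with 0 to 1. All 42 genes of at least 5 CPM were higher in the cells rich in S-phase UMIs, 15 of them at least 1.5-fold, where 9.16% of all genes were, with a median log2 ratio of 0.51. In the mutant the numbers were 477 and 871 cells. There 37 of 39 genes were higher, 17 of them at least 1.5-fold, where 17.6% of all genes were, with a median log2 ratio of 0.54.

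Box C/D genes had the highest median of the 6 roles in both libraries, 0.63 in the control and 0.74 in the mutant. Nolc1 was at 42.0 CPM in S-poor and 86.1 CPM in S-rich control cells, a ratio of 2.05 (1.61 to 2.65), and in the mutant it had 12.9 and 27.7 CPM, a ratio of 2.15 (1.26 to 3.70). Nop56 had ratios of 1.98 in the control and 1.70 in the mutant. Dkc1 was at 57.0 and 100.3 CPM in the control, a ratio of 1.76 (1.42 to 2.19), and in the mutant it had 13.3 and 57.9 CPM, a ratio of 4.34 (2.78 to 6.95), so that these intervals did not overlap.

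Pinx1 and Wdr74 hardly followed S-phase content. Pinx1 had ratios of 1.02 (0.749 to 1.42) in the control and 0.983 (0.332 to 2.65) in the mutant, and Wdr74 of 1.01 (0.797 to 1.28) and 1.05 (0.702 to 1.54). Npm1 followed S-phase content in the control, with a ratio of 1.48 (1.43 to 1.52), and by less in the mutant, at 1.18 (1.14 to 1.21). Ribosomal protein genes had summed ratios of 1.03 and 0.955. Hemoglobin genes were at 2431 CPM in the S-poor and 582 CPM in the S-rich control cells. Without cells that had 2 or more erythroid markers the medians of the assembly genes were 0.51 and 0.53.

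**Figure D3:**
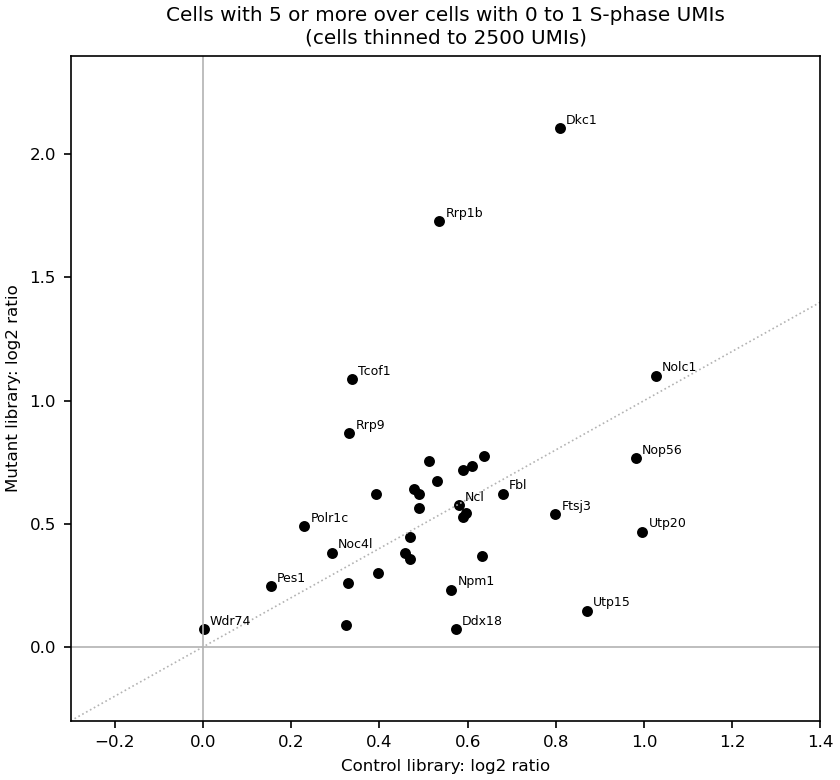
Log2 ratio of each gene in cells with 5 or more over cells with 0 to 1 S-phase UMIs, in the control (horizontal) and the mutant (vertical), for the 35 genes with at least 10 UMIs in each of the 4 sets of cells. The dotted line marks equal ratios, and names are given to points away from the centre and to Npm1 and Ncl. All 35 points are above 0 on both axes, and Dkc1 lies highest on the mutant axis.

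Lower S-phase content went with a part of the difference between the libraries. Thinned control cells had a mean of 4.98 S-phase UMIs and mutant cells 2.80. The 44 genes had a mean of 20.1 UMIs per control cell and 17.1 per mutant cell, a ratio of 0.853 (0.843 to 0.862). With mutant cells weighted to the S-phase UMIs of the control the ratio was 0.913, which left 56.9% of the log2 difference. Without Npm1 and Ncl the means were 7.84 and 4.48 UMIs, and the ratio of 0.571 (0.559 to 0.583) became 0.638, which left 80.1% of the log2 difference. Few UMIs measure the S-phase content of a cell with error, so this matching is partial.

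Gene by gene and with no minimum level, 42 of the 44 genes were lower in the thinned mutant cells before and after this matching. At or under 1/1.5 of the control were 29 before, where 23.6% of all genes were, and 25 after, where 20.0% of all genes were. For 40 genes the matched ratio was nearer to 1, and the same count over all genes is not given here. With this matching the median log2 ratio moved from -0.96 to -0.65 for the 44 genes and from -0.17 to -0.14 for all genes. Dkc1 moved from 0.347 to 0.496, and Rrp1b from 0.474 to 0.666. Pinx1 stayed near its value, at 0.186 and 0.194, as did Nhp2 at 0.441 and 0.485. Npm1 moved from 1.17 to 1.22, and Polr1c from 1.04 to 1.17.

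Along the S-phase scale, both libraries had higher means in the higher bins, with all 44 genes and without Npm1 and Ncl. The means of all 44 ran from 13.9 to 22.0 UMIs in the control and from 14.6 to 19.8 in the mutant. These pool the gates: arterial-gated cells were 73 of 211 control cells with 0 S-phase UMIs and 58 of 1076 with 8 or more. In the lowest and highest bin, venous-gated control cells had means of 19.0 and 23.1 UMIs, and arterial-gated ones 9.18 and 15.3. In the mutant the means were 18.2 and 21.2 in venous-gated cells, and 11.6 and 14.6 in arterial-gated ones. Control cells with 0, 1 to 2, 3 to 4, 5 to 7 and 8 or more S-phase UMIs had means of 5.42, 6.61, 7.80, 8.46 and 8.64 UMIs of the other 42 genes. Mutant cells in the same bins had means of 3.70, 4.08, 4.72, 5.37 and 6.02. The ratio was between 0.605 and 0.697 in each bin. With all 44 genes the ratio was 1.05 (1.01 to 1.10) in cells with 0 S-phase UMIs and 0.903 (0.868 to 0.939) in those with 8 or more.

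**Figure D4:**
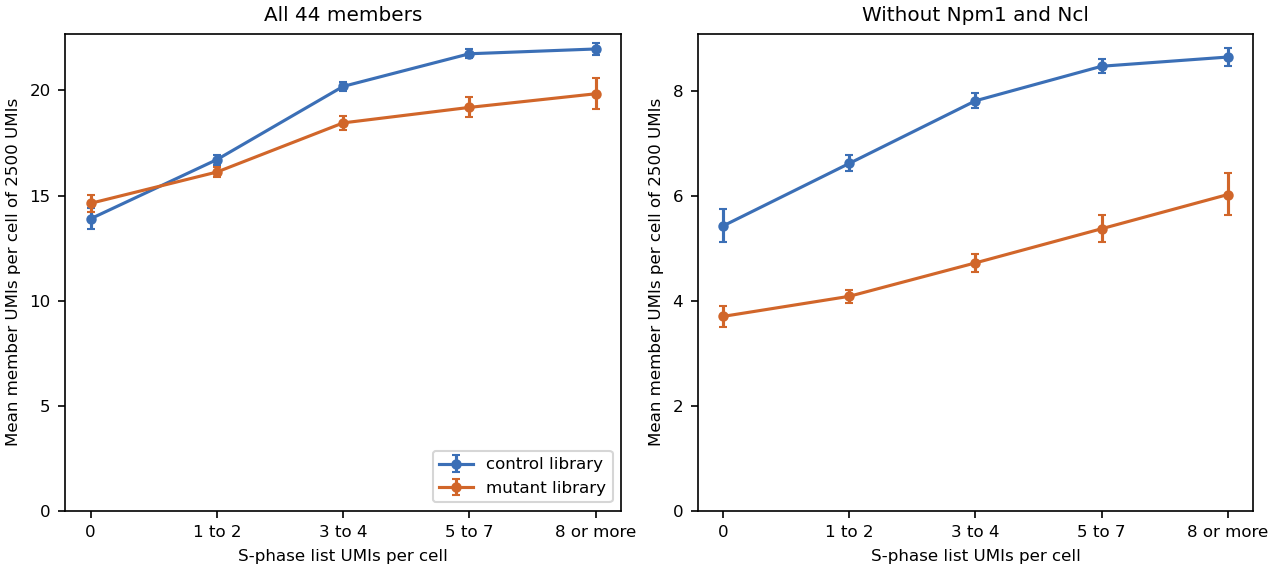
Mean UMIs of the 44 genes per cell (left) and without Npm1 and Ncl (right) against the S-phase UMIs of the cell, in cells thinned to 2500 UMIs. Blue is the control and orange the mutant library, gates are pooled, and bars are exact 95% Poisson intervals of the mean. Lines cross between the 2 lowest bins in the left plot and stay apart in the right plot, where the mutant means run from 3.70 to 6.02 and the control means from 5.42 to 8.64.

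In cells with little sign of cycling the genes split. Cells with 0 to 1 S-phase and 0 to 1 G2/M UMIs, 271 of the control and 367 of the mutant, had means of 10.8 and 13.8 UMIs of the 44 genes. That is a ratio of 1.28 (1.23 to 1.34). Gates were pooled in these cells, and values by gate are not given for them. Without Npm1 and Ncl the means were 4.37 and 3.29, a ratio of 0.753 (0.694 to 0.816). With all UMIs of the same cells Npm1 had 2274 control and 4297 mutant CPM, a ratio of 1.89 (1.82 to 1.96), while Ncl had 474 and 367 CPM, a ratio of 0.773 (0.703 to 0.850), so that of these 2 genes Npm1 alone was higher.

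Gene by gene, the difference between these low-cycling cells was close to that of all genes. Of the 39 genes that reached 5 CPM, 26 were lower in the mutant and 13 were not, and 15 had an interval below 1. At or under 1/1.5 of the control were 11, where 32.2% of all genes were, and the median log2 ratio was -0.37, beside -0.29 for all genes. The 12 genes other than Npm1 that were not lower were Fbl, Utp15, Wdr43, Nop14, Nob1, Pes1, Wdr12, Nle1, Noc2l, Gnl3, Nip7 and Ddx18, with ratios from 1.01 for Wdr43 to 1.19 for Utp15 and intervals that each included 1. Bop1 and Pinx1 stayed low there, at log2 ratios of -2.34 and -2.07, and Polr1c was at -0.31.

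Assembly gene UMIs also varied with hypoxia-response genes, with all gates pooled. In the control these genes summed to 633 CPM in arterial-gated and 346 CPM in venous-gated cells, and in the mutant to 3649 and 2025 CPM. The part of the arterial and venous makeup in the values below was not tested. Thinned control cells with 0 UMIs of 15 hypoxia genes had a mean of 21.4 UMIs of the 44 genes (21.3 to 21.6), and the 20 cells with 8 or more had 9.00 (7.73 to 10.4). In the mutant, 52 cells with 0 had a mean of 17.1 (16.0 to 18.3) and 715 cells with 8 or more had 15.3 (15.0 to 15.6). In the mutant the mean was highest, 18.4, in the 588 cells with 3 to 4. Without Npm1 and Ncl the means ran from 8.21 down to 4.65 in the control. In the mutant they were 4.44, 4.56, 4.82, 4.68 and 3.95 from the lowest to the highest bin. Mean hypoxia UMIs were 1.09 in control and 6.09 in mutant cells. Without Npm1 and Ncl the ratio of 0.571 was 0.579 with mutant cells weighted to the hypoxia UMIs of the control. That weighting rests mostly on cells with 0 and 1 to 2 hypoxia UMIs. They made up 39.9% and 48.4% of control cells but 2.14% and 14.4% of mutant cells. By bin, from 0 to 8 or more hypoxia UMIs, the ratio was 0.541, 0.582, 0.706, 0.877 and 0.848, with 20 control cells in the top bin.

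Across single cells, at the same depth of 2500 UMIs, the sum of the 44 genes had a Spearman coefficient of 0.27 with S-phase UMIs in the 5591 control cells and 0.25 in the 2435 mutant cells. With G2/M UMIs it was 0.20 and 0.16, and with hypoxia UMIs -0.20 and -0.19. With the 115 further assembly genes it was 0.45 and 0.29, and with ribosomal protein genes 0.31 and 0.30. Cells of a library share its preparation and its free RNA, and these coefficients describe sparse counts with all gates pooled. The sum was more spread than counting alone gives, with a variance 3.26 times the mean in the control and 2.46 times in the mutant.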

How the data were processed

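Single cells were sequenced with the 10x 3′ kit, version 3, per the labels' protocols, as 1 library per genotype. Cell Ranger, with no version, and build mm10 are named in the submitters' processing notes, while annotation, cell filter and counting settings are not given in those sources. Raw UMI counts make up the deposited matrix, per the file headers. From the authors also comes the cell table, with a mitochondrial fraction, checked against the matrix, and a size factor, a ratio made by the authors and not used. Cells took their group from the deposited genotype word.

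UMIs were summed per library or gate and divided by the total (CPM). Intervals at 95% are Poisson (exact) for levels, conditional binomial (exact) for ratios and Clopper-Pearson for shares, from Python 3.11.15 with numpy 2.4.6, scipy 1.17.1 and pandas 2.3.3. For log2 ratios, 0.5 UMI was added to each sum. Genes were counted from a mean of 5 CPM up, with 1.5-fold as the bound. Each group had 1 library, so no p-value was computed. An endothelial-gated cell had at least 3 endothelial markers and at most 1 blood, 1 mesenchymal and 1 neural marker. Blood-gated, mesenchymal-gated and neural-gated cells had at least 3 markers of their class and at most 1 of each other class among these 3. No limit on endothelial markers was set for them. Arterial-gated and venous-gated cells were endothelial-gated cells in which that class led by at least 2 markers. Gates were compared with at least 50 cells in each. Cells were thinned to 2500 UMIs without replacement. No doublets were called or removed, and free RNA was not removed. Sequences and start sites came from RefSeq tables on GRCm38.p6, and gene positions from GENCODE vM21 on GRCm38.

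The members and lists were chosen with earlier results of these data known. Named were all 44 members, the MYC network, Map3k3, of the further assembly genes the 4 lowest and 4 highest by the interval bound nearest to 1, and the 2 lowest S-phase and G2/M genes. The ratio, interval and matching steps were tested on simulated data. Alternatives were other scalings, low-level filters, depths, choices of cells and gates. After seeing the data, erythroid-marker cells were left out, arterial and venous gates were set on thinned cells, and S-phase UMIs were matched between them.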

Additional observations from a re-analysis of the deposited data

How the results depend on the processing

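No paired analysis was possible because each genotype had 1 library. Leaving out mitochondrial, ribosomal protein and hemoglobin genes from the totals moved the median log2 ratio of all genes by 0.12, with TMM factors (edgeR 4.0.16) by 0.071 and with median-of-ratios factors by 0.086. The summed ratio of the 44 genes, 0.832 as reported, was 0.906, 0.873 and 0.883 under these scalings, 0.853 in thinned cells, and 0.819 in cells of both libraries with an Xist UMI and no Y-linked UMI. Between 21 and 33 genes were at or under 1/1.5 of the control, of 31 to 44 counted, under these and the filters tried. Of all genes, 19.9% were as low in all cells and 23.6% in thinned cells, and the share is not given for the other settings. In cells with 0 to 1 S-phase and 0 to 1 G2/M UMIs, 11 of 39 genes were as low (32.2% of all genes were). The median log2 ratio there was -0.37, beside -0.29 for all genes, and the summed ratio, with all UMIs of these cells, was 1.34. In those cells 26 of 39 genes were lower, and of those past 1.5-fold in all cells the log2 ratios of Utp15 (0.24), Wdr43 (0.014), Wdr12 (0.028), Gnl3 (0.19) and Nip7 (0.072) changed sign; the cause was not tested beyond the values above. Of 308 single-gene values under alternatives, 213 moved by less than counting error, 90 moved by more and 5 reversed. The ratio at matched S-phase UMIs was 0.894 at 1500 and 0.925 at 4000 UMIs per cell, and 0.638 without Npm1 and Ncl. The arterial over venous ratio of the control was 0.542 with gates on thinned cells and 0.581 at matched S-phase UMIs, and that of the mutant 0.628 at matched S-phase UMIs. Medians in endothelial-gated cells and in S-rich over S-poor cells kept their direction and moved by less than counting error in each alternative. Sparse genes such as Heatr1 (31 mutant UMIs) are limited by depth.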
